A study of Mus musculus and Homo sapiens with 6 samples.

Results

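Cytosolic ribosomal protein genes were taken as the protein-coding mouse genes whose symbol begins with Rpl or Rps and a digit, together with Rplp0, Rplp1 and Rplp2, and without the Rps6k kinases. The rule found 90 of the 21900 protein-coding genes placed on chromosomes. Of these, 76 encode structural proteins of the ribosome, 46 in the large and 30 in the small subunit. The other 14 are 7 paralogs, 6 genes named as retrocopies and Rps19bp1, which encodes a protein that binds Rps19 and is no part of the ribosome. Open chromatin was profiled in NMuMG cells, a line of mouse mammary gland epithelium, with ATAC-seq, an assay that uses the Tn5 enzyme to cut and tag accessible DNA. Libraries came from 25000, 50000, 75000 and 100000 untreated, low-passage cells, with 1 library at each number. There is thus no replicate error for any value, and no test was run. The genotype label of all of them repeats the name of the line. The study's purpose was to optimise the protocol over cell numbers. Its 2 MDA-MB-231 samples, from a human breast cancer line, are not analysed here.

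The ribosome is built from ribosomal RNAs and a large set of small proteins. The small subunit reads the mRNA, and the large subunit joins amino acids and carries a flexible stalk that recruits translation factors. In mammals most of these proteins come from a single expressed gene each, while many copies without activity are scattered over the genome. Their mRNAs typically begin with a C and a run of pyrimidines, the TOP tract, through which growth signals control their translation, and their introns often hold small nucleolar RNAs.

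Stretches around the annotated start are shown for members with the highest and lowest scores in their subunit, for long pyrimidine tracts, for an X-linked gene missed in some libraries, and for genes beside their copies. Each runs from 60 bases before to 20 bases after the start, which is base 61, in RefSeq GRCm38.p6, the assembly that mm10 names. Capitals mark the ETS motif CCGGAAG and any C followed by at least 4 pyrimidines that begins at the start.
Rpl37 (large subunit, highest; chr15:5116553-5116632, + strand): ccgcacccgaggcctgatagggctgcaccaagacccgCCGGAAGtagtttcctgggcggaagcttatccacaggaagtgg
Rps21 (small subunit, highest; chr2:180257319-180257398, + strand): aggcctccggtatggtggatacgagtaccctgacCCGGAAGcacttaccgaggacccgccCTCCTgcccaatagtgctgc
Rpl38 (tract and ETS motif; chr11:114668520-114668599, + strand): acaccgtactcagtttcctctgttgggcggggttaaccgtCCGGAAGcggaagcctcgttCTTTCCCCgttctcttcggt
Rpl35 (tract; chr2:39005112-39005191, - strand): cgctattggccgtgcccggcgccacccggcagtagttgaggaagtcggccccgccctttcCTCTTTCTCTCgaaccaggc
Rpl28 (tract; chr7:4792905-4792984, + strand): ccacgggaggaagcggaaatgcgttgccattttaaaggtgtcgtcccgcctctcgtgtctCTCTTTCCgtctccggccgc
Rps6 (small subunit, lowest with a peak in every library; chr4:86857348-86857427, - strand): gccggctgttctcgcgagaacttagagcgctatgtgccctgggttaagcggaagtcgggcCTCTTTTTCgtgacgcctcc
Rpl5 (among the lowest of the large subunit; chr5:107900468-107900547, + strand): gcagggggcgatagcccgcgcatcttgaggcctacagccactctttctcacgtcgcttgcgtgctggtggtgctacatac
Rps4x (X-linked, in 2 libraries; chrX:102189372-102189451, - strand): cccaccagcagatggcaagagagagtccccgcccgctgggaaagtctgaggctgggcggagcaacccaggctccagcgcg
Rps27rt (retrocopy, no peak; chr9:114982720-114982799, - strand): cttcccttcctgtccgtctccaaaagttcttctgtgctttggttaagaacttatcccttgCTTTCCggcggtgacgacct
Rps27 (its parent, in every library; chr3:90213629-90213708, - strand): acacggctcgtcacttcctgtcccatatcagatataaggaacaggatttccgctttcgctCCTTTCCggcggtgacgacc
Rpl39l (paralog, no peak; chr16:10170168-10170247, + strand): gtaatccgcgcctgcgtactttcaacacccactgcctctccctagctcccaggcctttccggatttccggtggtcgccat
Rpl39 (its parent, in every library; chrX:37085203-37085282, - strand): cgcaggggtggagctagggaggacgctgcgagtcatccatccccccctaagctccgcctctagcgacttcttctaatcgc

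A peak inside the gene or within 1 kb of an end was listed for nearly every structural gene. Of all 90 members, 79, 82, 81 and 81 had such a peak at 25000, 50000, 75000 and 100000 cells, while the shares of all protein-coding genes were 58%, 60.1%, 59.3% and 60.7%. In all 4 libraries together, 77 members (85.6%) and 54.5% of protein-coding genes had a peak. Of the 76 structural genes, 71 had a peak in all 4 libraries, 5 in some and 0 in none. Since no structural gene was longer than 11774 bp, protein-coding genes up to that length were counted too, and 35.8% of those 8810 genes had a peak in all 4 libraries. In the single libraries 73, 75, 74 and 75 structural genes had a peak, against 38.6%, 40.1%, 39.4% and 40.6% of the genes up to that length. With the window limited to 1 kb around the gene ends, 75, 76, 77 and 77 members had a peak in the 4 lists, against 46.9%, 48.9%, 48.4% and 49.5% of protein-coding genes. By that rule 72 members, 67 of them structural, had a peak in all 4 libraries, against 43.9% of protein-coding genes. The mitochondrial ribosomal protein genes, which serve the separate ribosome of mitochondria, had a peak in all 4 libraries at 70 of 78 genes. Of 40 proteasome subunit genes, which encode the main protein-degrading particle, 37 did. The share of cytosolic ribosomal protein genes with a peak was thus well above the background, and close to that of these other sets of many-subunit particles.

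**Figure D1:**
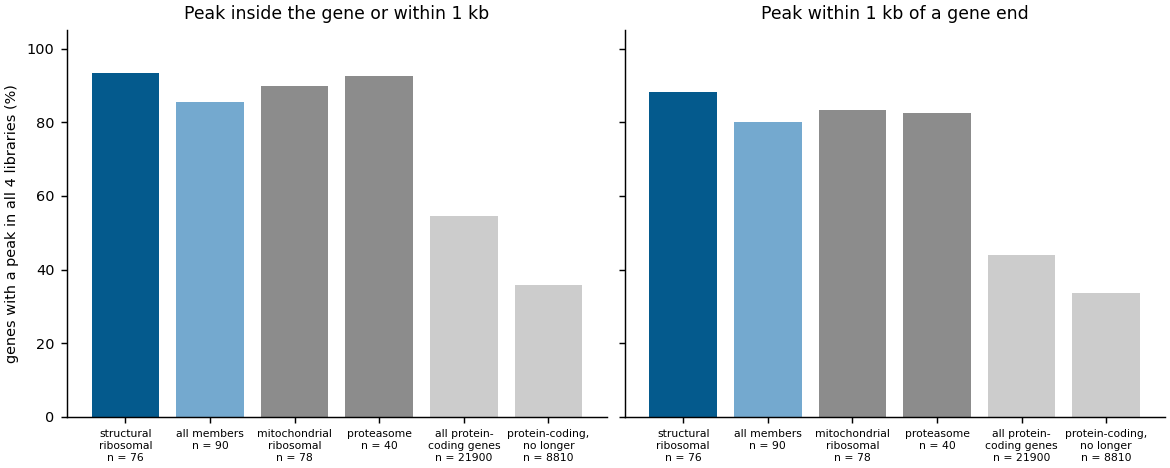
Share of genes (%) with a peak in all 4 libraries, counting peaks inside the gene or within 1 kb (left) or only within 1 kb of a gene end (right). In the left panel the structural ribosomal protein genes reach 93.4% and all members 85.6%, against 54.5% of all protein-coding genes and 35.8% of those no longer than the longest structural member.

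The highest-scoring members were found at similar places in every list. The score is the authors' own value per peak, and each is given beside its percentile, the share of peaks in the same list with a lower score, ties counted at their midpoint. Rpl37, a large-subunit protein that binds zinc, had scores of 80, 94, 98 and 89 at 25000, 50000, 75000 and 100000 cells, at percentiles of 98.3 to 99.2. Rps21, of the small subunit, had 78, 108, 63 and 110, at percentiles of 95.7 to 99.3. Rpl13a, which besides its place in the large subunit takes part in silencing of interferon-induced mRNAs, had 60, 83, 84 and 93. All 3 were above the 95th percentile in every list.

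Other large-subunit genes followed. Rpl27 had scores of 61, 80, 69 and 71, in the same order of cell numbers. Rpl18 had 41, 70, 60 and 67, but from a peak at the outer annotated end of the gene. That peak was centred 2746 to 2871 bp before the start in the promoter table, and the peak at this start itself scored 21, 27, 21 and 38.

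Among small-subunit genes, Rps2, near the entry of the mRNA channel, had scores of 42, 68, 57 and 59. Rps19, the gene most often mutated in Diamond-Blackfan anaemia in humans, had 51, 55, 55 and 57. Its peak was among the widest of any member, at 1000, 1050, 1150 and 1100 bp, where the structural genes ranged from 300 to 1150 bp. Rpl3l, also among the 10 highest members, is described with the paralogs.

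The 5 lowest members with a peak in every library included genes of central function. Rpl32 had scores of 11, 13, 8 and 10 at 25000, 50000, 75000 and 100000 cells, and its highest-scoring peaks did not all overlap between libraries. Rpl17, which lies near the exit of the peptide tunnel, had 12, 15, 9 and 8. Rps6, the target of the S6 kinases, had 8, 17, 9 and 12. The lowest score of any list was 8, and of these values the highest, 17 for Rps6 at 50000 cells, was at percentile 53.5 of its list.

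Rpl5 and Rpl11 carry the 5S RNA into the large subunit and, when free, bind the p53 regulator Mdm2. Rpl5 had 9, 12, 11 and 11 and was among the 5 lowest, whereas Rpl11 had 24, 26, 21 and 32, at percentiles of 64.5 to 78.1. Rpl5 thus scored below Rpl11 in each list. Rpl35a, another gene mutated in human Diamond-Blackfan anaemia, had 8, 16, 13 and 12.

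**Figure D2:**
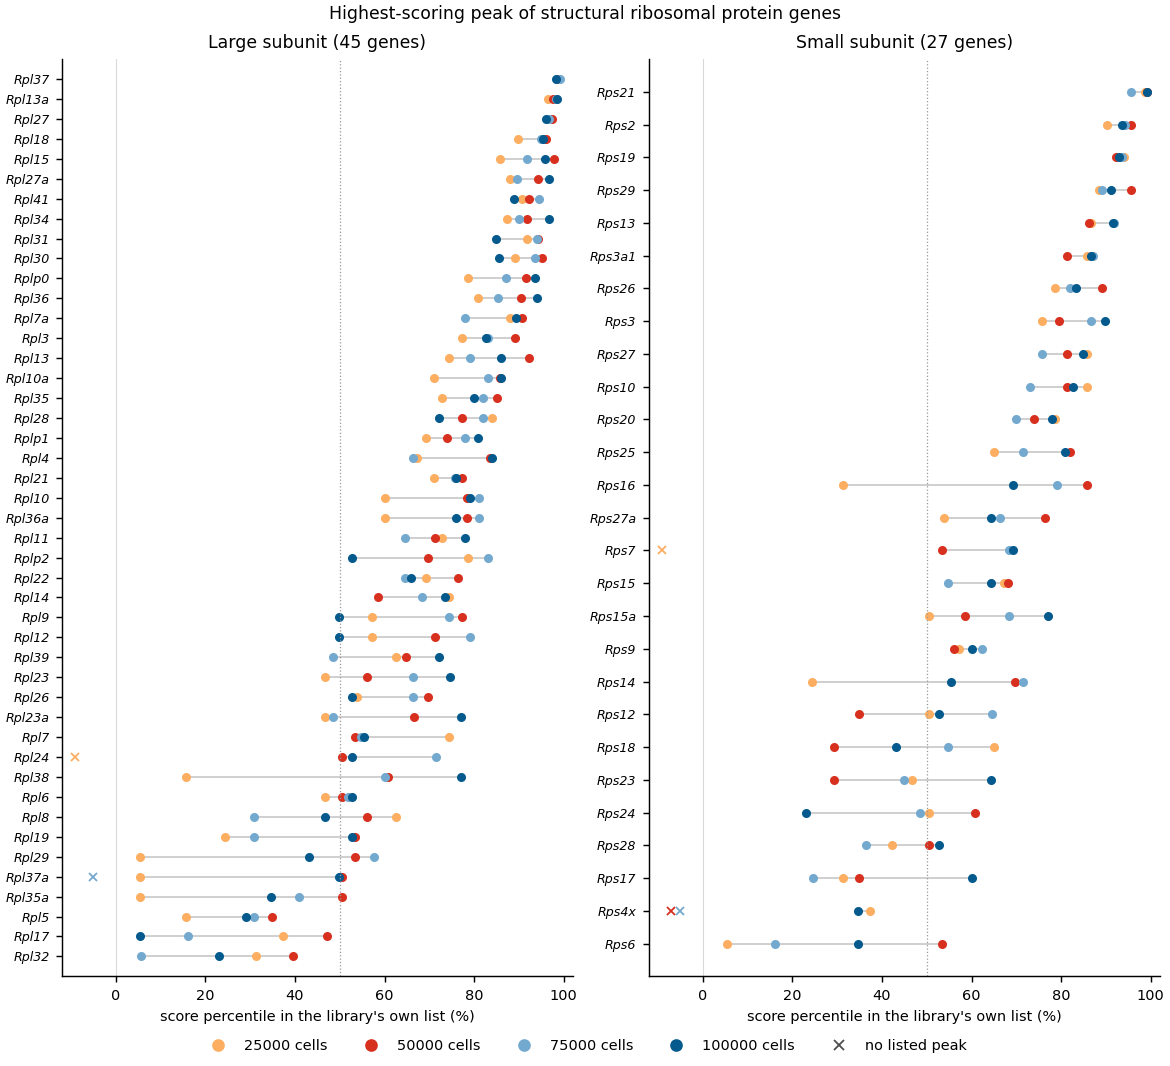
Percentile (%) of the highest-scoring peak of structural genes within the list of its library, with 1 point per library and a cross where no peak was listed; 45 large-subunit and 27 small-subunit genes are drawn, sorted by their mean over the libraries with a peak. Rpl37 and Rps21 lie at the top of their subunits with narrow ranges, whereas Rpl38 spreads from 15.8 to 77.0 and Rps16 from 31.3 to 85.7.

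Some structural genes were missed in at least 1 list. Rps4x, a small-subunit gene on the X chromosome, had 12 at 25000 cells and 12 at 100000 cells and no peak in the other libraries. Rpl37a had 8, 16 and 16 at 25000, 50000 and 100000 cells and no peak at 75000 cells. All of these scores lay at or below percentile 50.5 of their lists.

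Rps7, whose human counterpart can also bind the p53 regulator, had no peak at 25000 cells and 17, 23 and 25 at 50000, 75000 and 100000 cells. Rpl24, the gene altered in the Belly spot and tail mouse, had no peak at 25000 cells and 16, 25 and 17 in the other libraries. The lists hold no peak under a score of 8 and come without read counts. Depth is therefore unknown, and signal under that score was not detectable in these files.

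Stalk proteins and the ubiquitin fusion gene were intermediate. Rplp0, the base of the stalk, had scores of 28, 53, 41 and 59 at 25000, 50000, 75000 and 100000 cells. Rplp1 had 22, 28, 30 and 35 and Rplp2, with which it pairs on the stalk, had 28, 25, 35 and 17. The percentiles of Rplp0 were 78.6 to 93.5, those of Rplp1 69.2 to 80.9 and those of Rplp2 52.8 to 83.0. Rps27a, which is made as a fusion to ubiquitin, had 16, 30, 22 and 22, at percentiles of 53.9 to 76.3.

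Genes of the X chromosome other than Rps4x all had a peak in every library. Rpl10, which completes the subunit-joining surface, had scores of 18, 32, 33 and 33 at 25000, 50000, 75000 and 100000 cells. Rpl36a had 18, 32, 33 and 30, and Rpl39, a short protein in the peptide tunnel, had 19, 22, 15 and 27. The median percentile of the 4 X-linked genes, over those with a peak, was 60.02, 78.4, 81.1 and 74.1 in the 4 lists. Chromosome 7 held the most structural genes, with 14.

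A peak was common at structural genes, but its score was not above that of other genes with a peak. The median percentile of the 76 structural genes, over those with a peak, was 71.0, 77.4, 75 and 77.0 at 25000, 50000, 75000 and 100000 cells. For all protein-coding genes with a peak it was 75.8, 79.5, 78.0 and 80.0. Mitochondrial ribosomal protein genes had medians of 71.0, 71.3, 74.4 and 76.5, and proteasome genes of 69.2, 77.4, 73.0 and 73.4. In the same order of cell numbers, 4, 11, 6 and 10 structural genes were among the top 5% of the list, and 55, 67, 63 and 65 were at or above its median score. These counts use the highest peak per gene, while the list holds every peak. The same counts over all protein-coding genes are not given here, so they do not compare structural genes with others. The lower quartile of the structural genes was at percentile 50.5, 56.05, 58.3 and 52.8. That of all protein-coding genes with a peak was at 53.9, 58.5, 57.65 and 60.2. The upper quartiles were 85.75, 91.2, 87.1 and 89.1, against 90.2, 91.6, 91.1 and 91.55.

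Width did not set the structural genes apart either. Their median peak width was 600, 700, 700 and 700 bp, that of all protein-coding genes with a peak 650, 700, 700 and 700 bp, and that of each whole list 550 bp. Where every peak in the window was counted instead of the highest, the members' median percentile was 11.1, 12.2, 15.2 and 9.69 points above that of protein-coding genes. By the highest peak, the median percentile of all members was 72.8, 77.4, 75.65 and 77.0, below that of protein-coding genes in each list. The direction of the members' difference in score therefore depends on whether the highest or every peak is taken. The median gene length was 3169.5 bp for structural members and 17146 bp for protein-coding genes. Among protein-coding genes no longer than the longest structural gene, the median percentile of the highest peak was 75.8, 78.4, 78.0 and 79.1. For every peak in the window, no background limited by gene length is given here, so that difference is not separated from gene length.

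Large-subunit and small-subunit genes were alike in most measures. A peak in all 4 libraries was listed for 44 of 46 structural genes of the large subunit and 27 of 30 of the small subunit. The genes missed in some libraries included Rpl24 and Rpl37a in the large subunit and Rps4x and Rps7 in the small subunit. The median percentile of the large subunit was 71.0, 77.4, 78.0 and 77.0 in the 4 lists, and that of the small subunit 66.1, 76.3, 71.6 and 77.0. Median widths were 600, 700, 650 and 700 bp for the large subunit and 625, 650, 700 and 750 bp for the small subunit. Over all members, the large subunit was 3.23 percentile points above the small in the mean of the 4 differences. The percentiles of the large-subunit members spanned 5.26 to 98.6, and those of the small-subunit members 29.3 to 99.2, in the list of 50000 cells. The lowest of these values was that of the retrocopy Rpl37rt. Structural genes of the large subunit spanned 34.8 to 98.6 in that list, and those of the small subunit 29.3 to 99.2. The subunit difference over all members was 0.328 points where only peaks nearest to the gene's own end were counted and 7.64 points with gene ends only. The difference in width was 6.25 bp over all members and -18.8 bp over the structural genes, so that its direction depends on the members counted.

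**Figure D3:**
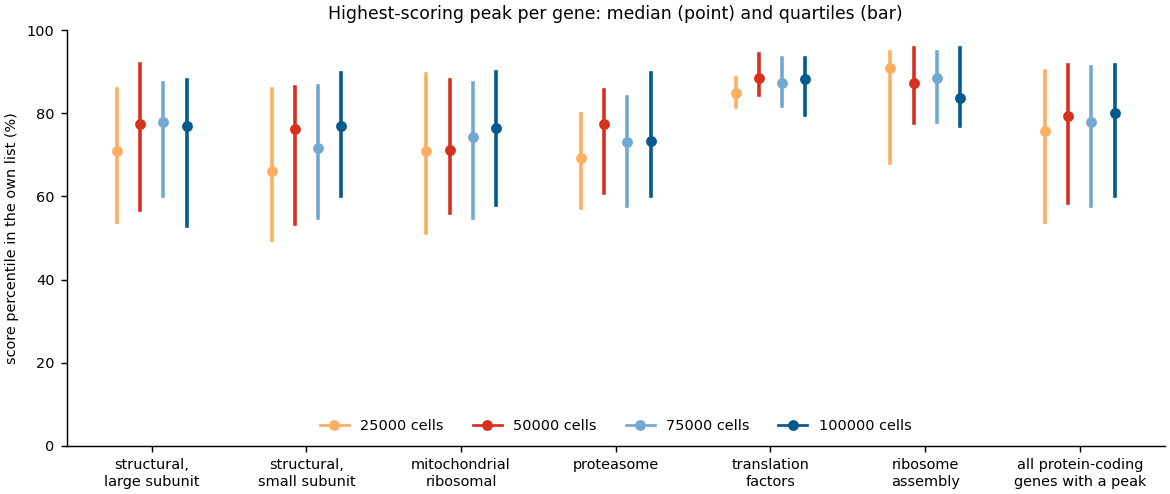
Percentile (%) of the highest-scoring peak per gene within each list, as the median (point) and the quartiles (bar) over the genes with a peak, for both subunits, other gene sets and all protein-coding genes, by number of cells. The medians of both subunits lie between 66.1 and 78.0, those of all protein-coding genes between 75.8 and 80.0, and those of translation factors between 84.9 and 88.4.

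Paralogs and retrocopies differed in whether any peak was listed. Rpl22l1, a paralog of Rpl22, had scores of 52, 66, 48 and 54, and Rpl22 had 22, 30, 21 and 23 at 25000, 50000, 75000 and 100000 cells. Rpl36al had 40, 45, 57 and 75, and Rpl36a had 18, 32, 33 and 30. In each list the paralog had the higher score in both of these pairs. A start on the opposite strand lay within 1 kb upstream of Rpl22l1 (Gm32950), Rpl36al (Mgat2) and also Rpl22 (9430083M05Rik). The peaks of these genes therefore cannot be assigned to the named gene alone. Rps27l, a p53 target, had 24, 32, 38 and 30, and Rps27 had 35, 35, 28 and 40, an order that was not the same in every list.

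Other paralogs had a peak that lay nearest to another gene, or no peak. Rpl3l, the form of Rpl3 used in heart and skeletal muscle, ranked among the 10 highest members with 61, 82, 62 and 93, while Rpl3 had 27, 47, 35 and 37. The peak of Rpl3l was nearest to an end of Msrb1, 93 to 118 bp away, and no peak lay within 1 kb of the annotated start of Rpl3l in any library. Rpl7l1 had 32, 30, 33 and 27 from a peak nearest to 2310039H08Rik, and 12, 14, 20 and 20 at its own start, while Rpl7 had 25, 17, 17 and 18. Rpl10l and Rpl39l, both expressed mainly in the male germ line, had no peak in any library. Their parents had a peak in every library, with the values of Rpl10 and Rpl39 given above.

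The genes named as retrocopies were without a listed peak in nearly every case. The treatment of reads that align to several copies is not given. A missing peak at a copy therefore does not show that its chromatin was closed. Rps27rt, Rpl32l, Rpl34-ps1, Rpl31-ps12 and Rps23rg1, which in mouse is a retroposed gene of the Rps23 family, had no peak in any library. The parents Rpl34, with scores of 37, 54, 46 and 75, Rpl31, with 45, 62, 56 and 40, and Rps23, with 14, 11, 14 and 22, had a peak in all 4. Rpl37rt had 8 at 50000 cells and 10 at 75000 cells, from a peak 2518 to 2593 bp inside the gene from its start. In the stretches printed above, Rps27rt and Rps27 share a run of 38 bases that continues beyond them, and that begins at base 1 of the copy and base 2 of the parent counted from the start. The bases before the start share no run of that length, and the other copies for which the parent had a promoter entry too share runs of 7 to 12 bases with their parents. Rps19bp1, which also binds the deacetylase Sirt1, had scores of 29, 26, 27 and 22.

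The same place was marked in each list for most structural genes. The highest-scoring peaks of the 4 libraries overlapped by at least 1 bp at 65 of the 71 structural genes with a peak in all 4. They did not all overlap at Rpl19, Rpl32, Rpl38, Rpl41, Rps15a and Rps18. The same count over all protein-coding genes is not given here, so whether such overlap is usual for any gene was not tested. Across these 71 genes the order of percentiles had a Spearman correlation of 0.852 to 0.923 between pairs of lists. This is a description across genes, which are not independent replicates. A single peak lay in the window of 57, 52, 57 and 52 structural genes at 25000, 50000, 75000 and 100000 cells, and 2 or more peaks in that of 16, 23, 17 and 23.

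Peaks sat on the annotated start and slightly before it. A start was annotated in the promoter table for 56 structural genes, of which 50 had a peak within 1 kb of it in all 4 libraries, against 45.9% of 17492 protein-coding genes. In the single libraries 52, 55, 53 and 55 of the 56 had one, against 48.3%, 50.1%, 49.8% and 50.8% of protein-coding genes. The median distance of the peak centre from the start was -31.5, -42.0, -57.0 and -62.0 bp for structural genes, negative being upstream. For all protein-coding genes it was -42.0, -39.0, -36.0 and -33.0 bp. The centre was within 250 bp of the start at 86.5%, 89.1%, 90.6% and 89.1% of the structural genes with a start peak, and at 81.3%, 82.1%, 82.2% and 81.9% of all protein-coding genes with one. Rps6 and Rpl5, at low scores, had centres near the start but on both sides of it, from -8 to 42 bp and from -78 to 197 bp. At the top of the order, the peak of Rps21 was centred 179 to 204 bp upstream and that of Rpl37 163 to 238 bp upstream.

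**Figure D4:**
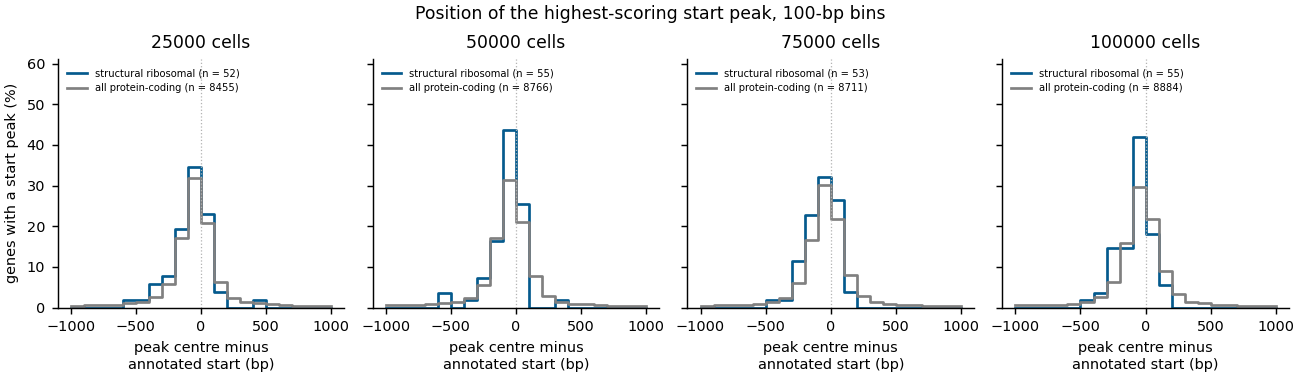
Distance (bp) from the annotated start to the centre of the highest-scoring peak within 1 kb of it, in 100-bp bins, as a share (%) of genes with such a peak; centres beyond 1000 bp are not drawn, and negative values are upstream. Structural ribosomal protein genes (52 to 55 genes) and all protein-coding genes (8455 to 8884 genes) both have their tallest bin in the 100 bp before the start.

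Neighbouring genes share some of these peaks. At 64 structural genes an end of the gene itself was the nearest end of a protein-coding gene to the peak in every library with a peak, at 5 it was nearest in some, and at 7 in none. For Rpl37 the nearest end was that of Card6, 112 to 187 bp from the peak centre. For Rpl15, with scores of 35, 85, 50 and 69, it was that of Nkiras1, 11 to 36 bp away. The other 5 were Rplp2 beside Pidd1, Rps25 beside Trappc4, Rpl36 beside Micos13, Rps18 beside Vps52 or B3galt4, and Rpl4 beside Snapc5. At Rpl37, Rpl15, Rplp2 and Rpl36 the peak also overlapped the ribosomal protein gene in every library. Rpl4 had scores of 21, 38, 22 and 39 from a peak centred 5963 to 6038 bp after its start, and its own start had only a peak of score 8, at 50000 cells.

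A start of another gene on the opposite strand was sought at or up to 1 kb upstream of each start, within the promoter table. Such a start was found at 11 of the 56 structural genes with a promoter entry (19.6%), against 13.2% of protein-coding genes with an entry. All 11 had a start peak in all 4 libraries, as did 39 of the other 45. Over all protein-coding genes, 1884 of 2302 with such a partner and 6146 of 15190 without had one. Partners of the 11 structural genes included Med22 for Rpl7a, Lrsam1 for Rpl12, Rab13 for Rps27, Lias for Rpl9, Ndufa7 for Rps28 and Sphk2 for Rpl18. The median percentile of the start peak was 67.2, 76.3, 73.0 and 66.0 at the 11 genes and 72.8, 77.9, 79.6 and 76.5 at the other structural genes. Over all protein-coding genes it was 81.9, 85.0, 83.8 and 85.5 with such a partner and 74.4, 77.4, 76.9 and 78.1 without. By this count the order of the medians was the opposite of that over all protein-coding genes. Partners without an entry in the promoter table were not counted. Rpl37 and Rpl15, whose peaks lay nearest to Card6 and Nkiras1, are among the genes without a partner here. The order may therefore depend on the table.

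Small nucleolar RNA genes lay inside 29 of the 76 structural genes, against 1.70% of all protein-coding genes, and numbered 56. Rpl4 held 5 of them, and Rpl7a and Rpl13a held 4 each. Of these hosts Rpl13a was near the top of every list, with the values given above.

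The sequence before and at the start had features that the symbol rule did not use. Motifs were searched on both strands from 250 bases before to 50 after the annotated start, and a match is a description of letters, not of binding. The ETS motif CCGGAAG was present at 23 of 56 structural genes (41.1%), among them Rpl37, Rps21 and Rpl38 in the stretches above. It was present at 12.9% of all protein-coding genes and at 22.8% of the 8030 protein-coding genes with a start peak in all 4 libraries. Mitochondrial ribosomal protein genes (37.7%) and proteasome genes (33.3%) also held it often. The YY1 motif ATGGCGG was found at 9 structural genes (16.1%), against 6.05% of all protein-coding genes and 10.4% of those with a start peak in all 4 libraries. Mitochondrial ribosomal protein genes held it at 18.8% and proteasome genes at 12.1%. Of the structural genes with it, 7 of 34 were in the large subunit and 2 of 22 (9.09%) in the small subunit.

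A pyrimidine tract that begins exactly at the start was more frequent at structural genes than in the other sets. A C at the start followed by at least 4 pyrimidines, on the sense strand, was found at 13 of 56 structural genes (23.2%), against 2.67% of all protein-coding genes. It was found at 0 of 69 mitochondrial ribosomal protein genes and 0 of 33 proteasome genes. The 13 genes were Rpl14, Rpl15, Rpl28, Rpl35, Rpl35a, Rpl38, Rplp2, Rps6, Rps10, Rps15a, Rps18, Rps21 and Rps27. Allowing the tract to begin within 5 bases of the start gave 27 structural genes (48.2%), against 21.5% of all protein-coding genes, 24.6% of mitochondrial ribosomal protein genes and 21.2% of proteasome genes. This looser rule was chosen after seeing the data, and under it the other sets held the tract too. The copy Rps27rt also has a tract at its start, which the stretches above show beside that of Rps27.

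The shares of the SP1 motif, the TATA box and the E-box lay between those of the backgrounds. The SP1 motif GGGCGG was found at 34 structural genes (60.7%), against 49.2% of all protein-coding genes and 73.3% of those with a start peak in all 4 libraries. The TATA box TATAAA was found at 6 (10.7%), among them Rplp0 and Rps2, against 14.8% of all protein-coding genes and 7.80% of those with a start peak in all 4 libraries. The E-box CACGTG was found at 6 (10.7%), against 8.91% and 12.2% of these backgrounds, so that for both motifs the direction depends on the background. The CRE motif TGACGTC was found at 6 (10.7%), against 4.35% and 7.04%, and was thus above both backgrounds, as the YY1 motif was, though with few matches. The ETS motif was as frequent at large-subunit genes, with 14 of 34, as at small-subunit genes, with 9 of 22.

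**Figure D5:**
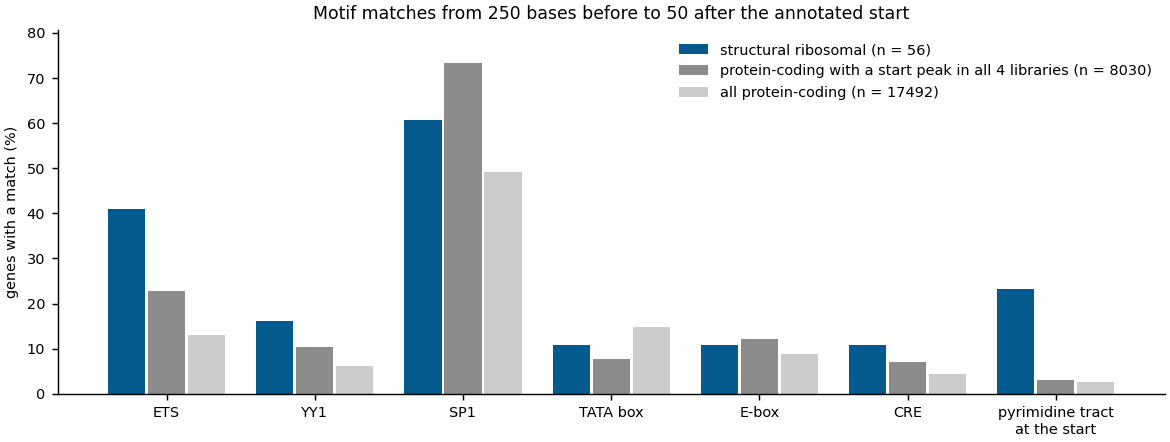
Share of genes (%) with each motif from 250 bases before to 50 after the annotated start, for structural ribosomal protein genes, protein-coding genes with a start peak in all 4 libraries and all protein-coding genes. The ETS motif reaches 41.1% and the pyrimidine tract 23.2% at structural genes, against 12.9% and 2.67% of all protein-coding genes.

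Scores differed between structural genes with and without some motifs. Percentiles were averaged over libraries for the genes with a peak in all 4, and the genes missed in some library are not in these medians. They are those of the highest-scoring peak in the gene window, which is not always the peak at the start where motifs were searched. Rpl18, with the SP1 motif, and Rpl4, without it, enter with peaks away from their starts in every library. Rpl41 and Rpl19, with the ETS and SP1 motifs, Rps15a, with SP1, and Rps18, with ETS, do so in some libraries. The median was 80.3 at 22 genes with the ETS motif and 71.4 at 30 genes without it. It was 82.9 at 33 genes with the SP1 motif and 62.0 at 19 without it, whereas 13 genes with the tract had 71.0 and 39 without it 74.9. Each group spanned over 50 points, and Rps6, which holds the ETS motif and the tract, was the lowest of both of those groups. These are descriptions over genes, with no test.

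Other genes of protein synthesis had a peak at least as often. Rpsa, Fau and Rack1, which encode ribosomal or ribosome-bound proteins under other names, had a peak in all 4 libraries. All 12 translation factors and related genes whose mRNAs carry a TOP tract also did, with median percentiles of 84.9, 88.4, 87.2 and 88.3. Eef1g, a subunit of the exchange factor of elongation factor 1A, had scores of 103, 117, 107 and 118, which were higher than those of Rpl37 in every list. Of 18 genes for ribosome assembly and RNA polymerase I, 17 had a peak in all 4 libraries, with medians of 91.0, 87.4, 88.5 and 83.7 over those with a peak. Ncl, which encodes the nucleolar protein nucleolin, had 71, 113, 83 and 73, Gnl3 had 8, 11, 11 and 11, and Pes1 had no peak at 75000 cells.

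Cell identity was compared with marker genes in the same window. Of 10 epithelial markers, 8 had a peak in all 4 libraries, among them Cdh1 with scores of 38, 58, 56 and 61, whereas Cldn7 had a peak in some libraries and Epcam in none. Of 5 blood markers 1 had a peak in all 4 libraries, as did 1 of 4 endothelial, 1 of 4 fibroblast and 0 of 3 muscle markers. The markers of other cell types with a peak in all 4 libraries were Spi1 of blood, with scores of 29, 26, 27 and 40, Cdh5 of endothelium, with 47, 54, 50 and 57, and Pdgfra of fibroblasts, with 13, 16, 20 and 21. The scores of Cdh5 were near those of Cdh1, and epithelial Grhl2 had lower ones, at 11, 17, 9 and 15. Ptprc, Cd3e, Kdr, Tie1, Lum, Dcn, Myod1, Des and Acta1 had no peak in any library.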

How the data were processed

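Peaks of 4 ATAC-seq libraries of NMuMG cells were analysed, 1 library per cell number, grouped by the number in their titles. The authors deposited 1 peak list per library with a whole-number score per peak, used here only to rank and describe peaks within a list. The lists hold 38878, 43832, 41509 and 45530 peaks, from 25000 to 100000 cells, on a 50-bp grid. They carry no read counts, so that depth is unknown. Tools in the submitters' processing notes are bedtools 2.17.0, Picard 1.107, SAMtools, Bowtie 0.12.8 and cutadapt; of the builds listed there, mm10 applies to mouse and hg19 to human. Not given in the sources used here are the settings of the peak caller, what the score is computed from, any shift for Tn5 insertion and the treatment of reads that align to several copies of a gene.

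Gene positions, starts and promoter sequences came from RefSeq tables of GRCm38.p6, matched by symbol and gene ID. The promoter table held 69 of the 90 members, 56 of them structural, and 17492 protein-coding genes; other members were described by their gene ends, which include neither strand nor inner starts. A peak belonged to a gene when it overlapped the gene or 1 kb around it by at least 1 bp, and the highest-scoring peak described the gene. Members were classed as structural, paralog, retrocopy or not ribosomal by their names and general knowledge. Members and lists were chosen with earlier results of these data known. Genes named were the 10 highest and 5 lowest by mean percentile among members with a peak in every library, all with a peak in some or no library, Rplp0, Rplp1, Rplp2, Rpl5, Rpl11, Rps6, Rps27a, Rps19bp1, and each paralog or copy beside its parent; others were named after their values were seen, to illustrate a count. Some items these rules select are left out of the text and the gene plot. Percentages over genes are complete counts and carry no interval. The overlap code was tested on simulated intervals against a direct search. Python 3.11.15, pandas 2.3.3, NumPy 2.4.6 and Matplotlib 3.10.9 were used. Alternatives covered the window, the members and background counted, the peaks used, the motif window and leaving out each library.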

Additional observations from a re-analysis of the deposited data

How the results depend on the processing

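Of 168 values recomputed under alternatives, 7 reversed and 16 moved beyond the limit set for the value; the cause was not tested. The other 145 stayed within that limit, which is wide: members with a peak in all 4 libraries numbered 57 instead of 77 among peaks at or above the median score. The members' median percentile minus that of protein-coding genes was -3.06, -2.07, -2.33 and -2.99 points at 25000 to 100000 cells. It was 11.1, 12.2, 15.2 and 9.69 with all peaks in the window. It was -1.16 at 75000 and -4.07 at 100000 cells with annotated starts only, and -4.81 at 25000 and -2.97 at 75000 cells with structural proteins only; both of these alternatives were chosen after seeing the data. The difference in median width was 0 bp in each list, but 50, 100, 100 and 50 bp with all peaks, -50 bp at 25000, 75000 and 100000 cells with annotated starts, and -50 bp at 25000 cells with structural proteins. The large minus small subunit difference was 3.23 points, 7.64 points with gene ends only and 0.328 points where the gene's own end was nearest. In width it was 6.25 bp, and -37.5 bp where the gene's own end was nearest, -18.8 bp for structural proteins and -6.25 bp on autosomes. With matches counted from 100 bases before the start, SP1 was found at 46.4% and the E-box at 3.57% of structural genes. Of all protein-coding genes 41.7% and 5.51% held them. The TATA box was found at 8.93% of structural genes, against 8.04% of all protein-coding genes. The order against all protein-coding genes thus turned round for the E-box and the TATA box. The tract was found at 48.2% when allowed to begin within 5 bases of the start.

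Without each library in turn, members with a peak in all others numbered 77 to 79, large-subunit members 48 to 49 and small-subunit members 29 to 30. The subunit difference was 1.82 to 3.95 points and 0 to 8.33 bp. No paired analysis was possible because there was 1 library per cell number and no test. Without read counts, a missing peak cannot be told apart from a shallow library, and windows of neighbouring genes overlap, so that a peak such as that of Rpl3l or Rpl4 cannot be assigned to 1 gene.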
